A study of Mus musculus with 12 samples.

Results

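Neighbouring genes on mouse chromosome 3, from Mrpl9 to Tars2, were compared in erythroid cells with and without a mutation of another locus. The stretch runs from 94443318 to 95760206 on build mm10, a length of 1317 kb. Its genes come from a list of 33 that was drawn up from these same libraries, because most genes of the stretch were lower in mutant than in wild-type (WT) cells. The genes were thus chosen by their level in mutant against WT cells, both with estradiol, and that difference is a description below: calls by the test are counted beside the share of all genes called and support nothing. All 33 were among the 25097 genes measured, and 30 of them had enough counts to be among the 12115 genes tested. The other 3, Tdrkh, Bnipl and Ctss, had 0 to 6 counts in each library. Tdrkh, a germ-line gene of the piRNA pathway, is on the list although it starts at 94413273, to the left of the stated interval. A further 14 genes of the interval were measured but are not on the list, and 9 of these were tested.

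The cells were G1E-ER-GATA-1, a mouse erythroid line that lacks its own GATA-1, the main transcription factor of red cell development. It carries GATA-1 fused to the hormone-binding part of the estrogen receptor, and beta-estradiol activates this fusion protein and sets off maturation. RNA was sequenced from 12 libraries, 3 in each of 4 groups: WT cells untreated, WT cells given 1 µM beta-estradiol for 48 h, mutant cells given the same estradiol treatment, and mutant cells given estradiol with 1 mM 5-aminolevulinic acid (5-ALA). All groups share the GATA-1-null background and the fusion protein. The labels call the mutant cells double mutants without saying what is altered. From general knowledge of the study, the alterations lie in regulatory elements of Alas2, the X-linked gene whose erythroid-specific product makes 5-ALA, a precursor of heme. Mutant cells without estradiol were not analysed here, so the response to estradiol is known for WT cells only. The number of mutant lines is not given in the sources used here, nor is whether the 3 libraries of a group are separate cultures. P-values therefore measure the spread between these libraries, which may be technical. In bulk RNA, fewer cells expressing a gene and less RNA per cell cannot be told apart.

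The listed genes share a location rather than a pathway. They encode parts of the proteasome, which degrades ubiquitin-tagged proteins, chromatin and transcription factors, parts of the mitochondrial translation machinery, enzymes of membrane lipids, and the survival factor Mcl1. Several of these activities matter in maturing red cells, which condense their chromatin, discard organelles and remodel their membranes, and Mcl1 is needed for the survival of blood progenitors. GATA-1 binds short DNA words with the core GATA and both activates and represses genes.

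Expected counts per library ranged from 20309085 to 43548387, and levels are given as counts per 1000000 (CPM) after scaling between libraries. Replicates of a group correlated at 0.992 to 0.995 across genes. Alas2 stood at 4.92, 5.96 and 4.47 CPM in untreated WT cells and at 4309, 4290.5 and 4279.5 with estradiol. It stood at 9.48, 8.24 and 5.20 CPM in mutant cells given estradiol, and at 12.4, 12.5 and 12.1 with 5-ALA added, so the libraries matched their labels for this gene. All 7 erythroid markers checked were above 1 CPM in every group. Their sum ranged from 571.6 to 587.7 CPM in untreated WT libraries and from 56356 to 57067 with estradiol. In mutant libraries it ranged from 17065 to 17657 CPM with estradiol and from 53832 to 56922 with 5-ALA added, so the erythroid sum was lower in mutant than in WT libraries and overlapped the WT range with 5-ALA. The list includes the globin genes Hbb-bs and Hba-a1. None of 8 macrophage and granulocyte markers was above 1 CPM. Of 5 mast cell markers 2 were above 1 CPM in untreated WT cells, where the list summed to between 133.7 and 149.7 CPM, against at most 1.44 CPM in the treated groups. Fcer1a, Tpsb2 and Mcpt8 were at 0 in all groups. Megakaryocyte markers (2 of 5 above 1 CPM untreated, 3 of 5 in the treated groups) summed to between 87.2 and 92.0 CPM in untreated WT cells, 25.9 and 28.0 in WT cells with estradiol, 10.6 and 11.4 in mutant cells with estradiol, and 18.4 and 18.9 in mutant cells with 5-ALA, with Gp1bb at 0 throughout. Fibroblast markers summed to at most 0.228 CPM and lymphocyte markers to at most 2.29 CPM. The erythroid, mast cell and megakaryocyte sums differ between the groups compared below, and their part in those differences was not tested.

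The promoters of 4 listed genes are shown because these genes moved in opposite directions with estradiol, which activates GATA-1, and do or do not carry a GATA word. Pip5k1a and Lysmd1 rose with estradiol in WT cells, and Setdb1 and Tars2 fell. Each sequence runs 5′ to 3′ on the gene's own strand, from 250 bases before to 50 bases after the annotated start, in RefSeq's GRCm38.p6. Capitals mark GATA words on either strand, which are AGATAA, its variant AGATAG, the further word TGATAA and its variant TGATAG. The windows are chr3:95106881-95107180 on the minus strand, chr3:95133838-95134137 on the plus strand, chr3:95357153-95357452 on the minus strand and chr3:95754928-95755227 on the minus strand.
Pip5k1a: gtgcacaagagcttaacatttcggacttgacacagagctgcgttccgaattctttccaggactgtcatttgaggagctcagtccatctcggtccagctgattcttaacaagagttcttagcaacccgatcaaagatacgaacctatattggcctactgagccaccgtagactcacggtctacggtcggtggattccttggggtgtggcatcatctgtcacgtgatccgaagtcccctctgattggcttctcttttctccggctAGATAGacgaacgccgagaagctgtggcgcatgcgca
Lysmd1: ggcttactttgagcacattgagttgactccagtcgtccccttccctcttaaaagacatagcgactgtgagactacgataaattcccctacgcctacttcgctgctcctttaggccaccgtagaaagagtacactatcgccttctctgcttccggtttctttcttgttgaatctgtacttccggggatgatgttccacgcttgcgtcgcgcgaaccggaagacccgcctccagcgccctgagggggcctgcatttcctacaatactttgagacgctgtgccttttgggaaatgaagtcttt
Setdb1: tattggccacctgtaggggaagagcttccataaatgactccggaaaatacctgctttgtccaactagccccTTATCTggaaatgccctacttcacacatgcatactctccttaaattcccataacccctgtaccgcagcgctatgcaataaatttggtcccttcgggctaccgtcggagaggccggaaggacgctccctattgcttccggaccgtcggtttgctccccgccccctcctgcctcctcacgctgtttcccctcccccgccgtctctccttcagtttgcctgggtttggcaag
Tars2: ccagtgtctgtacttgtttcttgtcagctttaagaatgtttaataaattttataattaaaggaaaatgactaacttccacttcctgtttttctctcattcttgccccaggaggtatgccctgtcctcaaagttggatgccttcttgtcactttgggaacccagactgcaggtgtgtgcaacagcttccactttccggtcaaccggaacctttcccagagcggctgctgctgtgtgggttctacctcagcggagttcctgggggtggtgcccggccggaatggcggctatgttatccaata
The Pip5k1a window holds AGATAG and the Setdb1 window holds TTATCT, the reverse complement of AGATAA. The windows of Lysmd1 and Tars2 hold none of the 4 words. RefSeq's start for Tars2 lies inside the gene as placed by the annotation used for coordinates (95739976 to 95760206, minus strand). The result for Tars2 thus covers the RefSeq start only, not the 5′ end in that annotation. RefSeq gives 34 such windows for 29 of the listed genes, and 7 windows, 1 each of 7 genes, hold at least 1 of the words (20.6%). Among all 32851 windows of this length, 9778 hold one (29.8%). The other listed genes with a match are Tnfaip8l2, Prune1, Cers2, Ctsk and Golph3l, of which 4 rose and Cers2 fell with estradiol. A match is a description of the letters and not a binding site.

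In mutant cells with estradiol, 27 of the 30 tested genes were lower than in WT cells with estradiol, 1 was higher and 2 (Tars2 and Gm16740) were not called different. Called means an adjusted p below 0.05 in edgeR's quasi-likelihood test over all 12115 genes. In this comparison 68.8% of all tested genes were called, 33.6% lower and 35.1% higher. The median mutant level of the listed genes was 65.0% of the WT level, a log2 difference of -0.62 with quartiles of -0.91 and -0.45, beside -0.01 for all tested genes. The median was -0.60, -0.64 and -0.62 when mutant library 1, 2 or 3 was set against the mean of the 3 WT libraries. These values share that reference. For the 27 lower genes the 3 mutant libraries all lay below the 3 WT libraries, as did those of 35.4% of all genes tested, and only Tmod4 lay above without overlap (36.3% of all genes). Without mutant library 1, Tars2 was also called higher (0.15). Under other scalings the median was -0.41 (TPM with a pseudocount of 1), -0.44 (with 0.1) and -0.47 (library totals), with 2 genes called higher, while that of all genes moved to 0.12, 0.18 and 0.14. These counts use the values that chose the genes.

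With 5-ALA added, the same WT libraries gave nearly the same median. The erythroid marker sum, which includes globin genes, was 53832 to 56922 CPM in these mutant libraries and 17065 to 17657 without 5-ALA. Whether the levels of the listed genes depend on the maturation state was not tested. In mutant cells with estradiol and 5-ALA, 26 of the 30 genes were called lower than in WT cells with estradiol, none higher, and 4 (Tars2, Tmod4, Gm16740 and Mllt11) were not called. Across all genes 29.0% were called lower and 33.3% higher. None of the listed genes was higher at an unadjusted p below 0.05 either, in edgeR, DESeq2 or limma, but Tars2 was called higher (0.16) without 5-ALA library 2. The median was 65.2% of the WT level, a log2 difference of -0.62 with quartiles of -0.75 and -0.51. Groups did not overlap for 25 of the 26, against 31.1% of all genes that were lower without overlap, the exception being Anxa9, and for none that was higher (34.8% of all genes). Both comparisons use the same WT libraries and cannot be counted as separate observations.

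The listed genes together made up a different share of all counts in each group. Their share was 0.347%, 0.349% and 0.341% in the untreated WT libraries and 0.297%, 0.299% and 0.299% in WT libraries with estradiol. Mutant libraries gave 0.214%, 0.214% and 0.216% with estradiol and 0.197%, 0.193% and 0.194% with 5-ALA added. The 4 groups did not overlap. These shares use library totals without scaling between libraries.

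**Figure D1:**
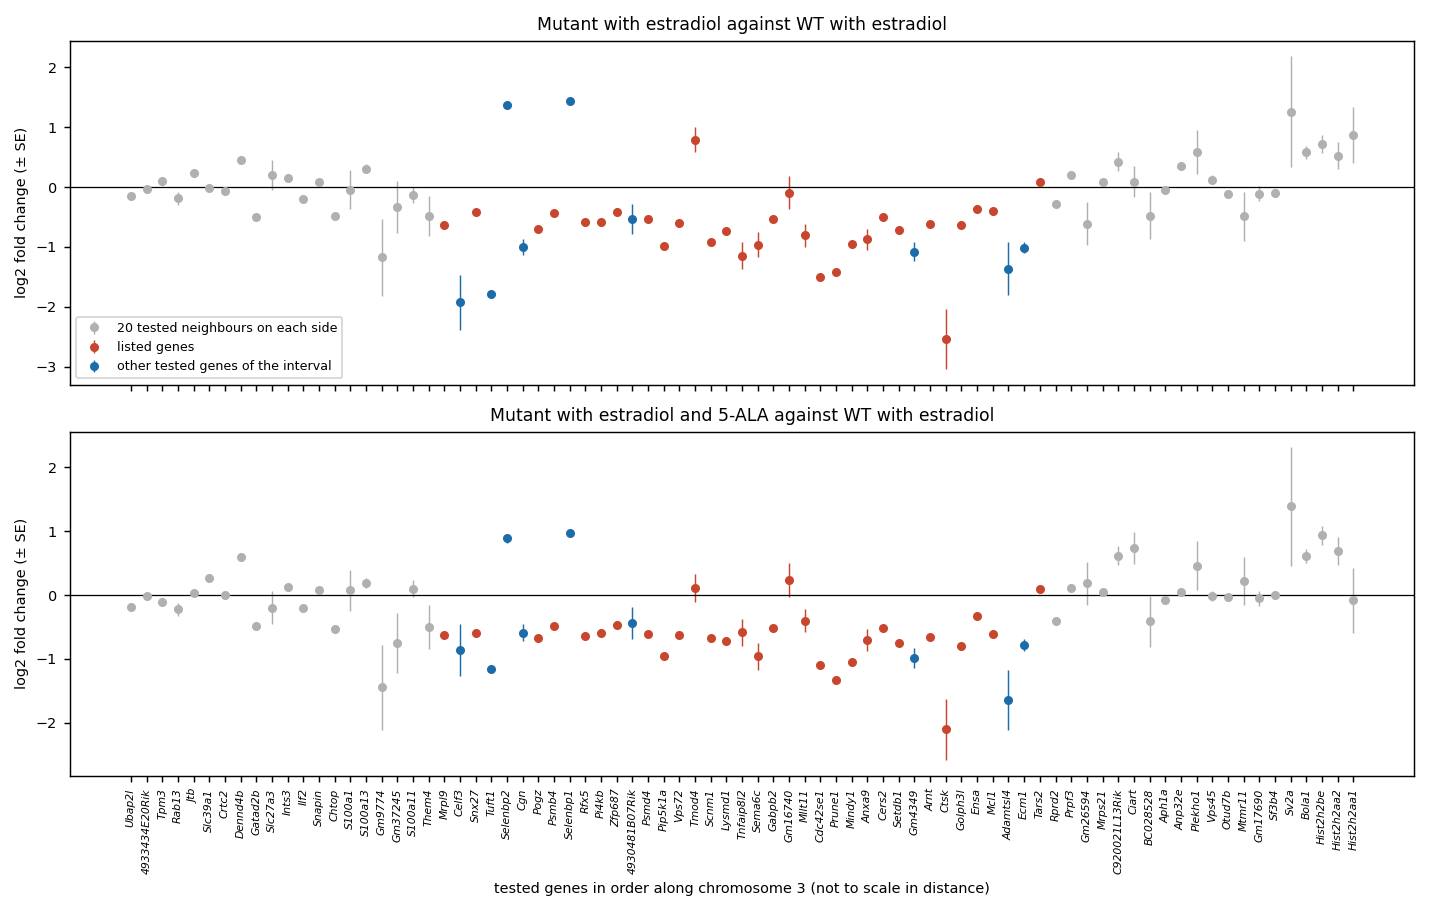
Log2 fold change (vertical axes, ± SE) of tested genes in their order along chromosome 3 (horizontal axis), for mutant cells with estradiol (top) and with estradiol and 5-ALA (bottom), each against WT cells with estradiol. Red points are the 30 listed genes, blue points the 9 other tested genes of the interval and grey points 20 neighbours on each side, whose medians were -0.05 and 0.11 in the top panel.

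The borders of the stretch were described from the genes just inside and just outside it. On the left the first tested listed gene was Mrpl9, at 64.8% of the WT level. Just outside, Them4, a mitochondrial thioesterase, lies 80.7 kb from the start of Tdrkh. Its libraries read 0.392, 0.545 and 0.585 CPM in WT and 0.535, 0.250 and 0.365 CPM in mutant cells, both with estradiol, and the groups overlapped. S100a11, a calcium-binding protein gene 887 kb away, had 3.75, 3.58 and 2.97 CPM in WT and 2.87, 3.25 and 3.22 in mutant cells, also with overlap. Gm37245 came next, with 0.489, 0.409 and 0.360 CPM in WT and 0.243, 0.363 and 0.365 CPM in mutant cells. All 3 are low. After them and the equally low Gm9774 the next tested gene is S100a13 at 3889 kb, so the left border rests on few reads.

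On the right the border was not sharp. Ecm1, an extracellular matrix protein gene that is not on the list, read 8.75, 9.40 and 9.18 CPM in WT and 4.86, 4.49 and 4.29 CPM in mutant cells with estradiol, a log2 difference of -1.01 ± 0.094. Tars2, the last listed gene, lies on the minus strand from 95739976 to 95760206, with its 3′ end next to Ecm1, and did not have a lower mutant level. Beyond it, Rprd2, a regulator of RNA polymerase at 95760341 to 95818863, had 74.6, 79.0 and 75.1 CPM in WT and 62.1, 64.1 and 61.4 in mutant cells, a log2 difference of -0.28 ± 0.036 with no overlap. With 5-ALA added Rprd2 had 57.9, 56.0 and 58.3 CPM, 75.3% of WT, a lower ratio than that of the listed Ensa (79.7%). The next gene, Prpf3, a splicing factor at 95830124 to 95855885, had 35.4, 37.9 and 35.6 CPM in WT and 42.7, 40.9 and 42.9 CPM in mutant cells, a log2 difference of 0.21 ± 0.038 in the other direction. Gm26594 followed with 0.848, 0.375 and 0.540 CPM in WT and 0.195, 0.341 and 0.578 in mutant cells, which overlapped. The 20 tested neighbours on the left had a median log2 difference of -0.05, the 20 on the right 0.11, and the 508 other tested genes of chromosome 3 had -0.02. Of the left 20, 4 were called lower and 4 higher, beside 33.6% and 35.1% of all genes. Lower ones on the left included Gatad2b (-0.49 ± 0.041) and Chtop (-0.49 ± 0.027), both lower than the listed Ensa (-0.37). Dennd4b on the same side was higher (0.45 ± 0.053). So ratios as low as those of some listed genes also occur outside the stretch.

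Windows of 25 tested genes in genome order put the stretch beside the rest of the genome. Those inside the stretch use the values that chose its genes, so their rank is a description and supports nothing. The windows slide gene by gene and overlap, so adjacent ones are not separate observations. The lowest window median inside the stretch was -0.81, centred on Prune1, and the highest was -0.39. Of 11538 windows, 11 were lower, all on chromosome 12 between Gm2016 and Tshr. With 5-ALA added the lowest window median of the stretch was -0.70, again at Prune1. The 16 windows that were then lower all lay elsewhere on chromosome 3, between Car13 and Ect2, and reached -0.89.

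The 9 tested genes of the interval that are not on the list had a wider range than the listed ones. Of these, 6 were called lower in mutant cells with estradiol (33.6% of all genes), 2 higher (35.1%) and 1 was not called. Tuft1, an enamel protein gene, had 101, 102 and 102 CPM in WT cells and 28.8, 29.8 and 30.05 in mutant cells. Selenbp1, which encodes a selenium-binding oxidase, went the other way, with 196, 193 and 190.1 CPM in WT cells and 521, 522 and 520.0 in mutant cells. Its neighbour Selenbp2, a close paralog whose reads the counting had to divide, had 15.0, 14.8 and 14.8 CPM in WT and 35.7, 38.1 and 41.7 CPM in mutant cells. Cgn (-0.998), Gm4349 (-1.08), Adamtsl4 (-1.36 ± 0.44) and Celf3 (-1.92 ± 0.46) were lower on the log2 scale, each from under 6 CPM in WT cells. The last 2 were near the floor, with 33 counts in WT against 15 in mutant cells for Adamtsl4 and 36 against 11 for Celf3. With these genes included, 33 of 39 tested genes of the interval were called lower (33.6% of all genes) and the median was -0.64. Of these 39, 30 are listed genes, which were chosen on this difference, so the joint count supports nothing.

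**Figure D2:**
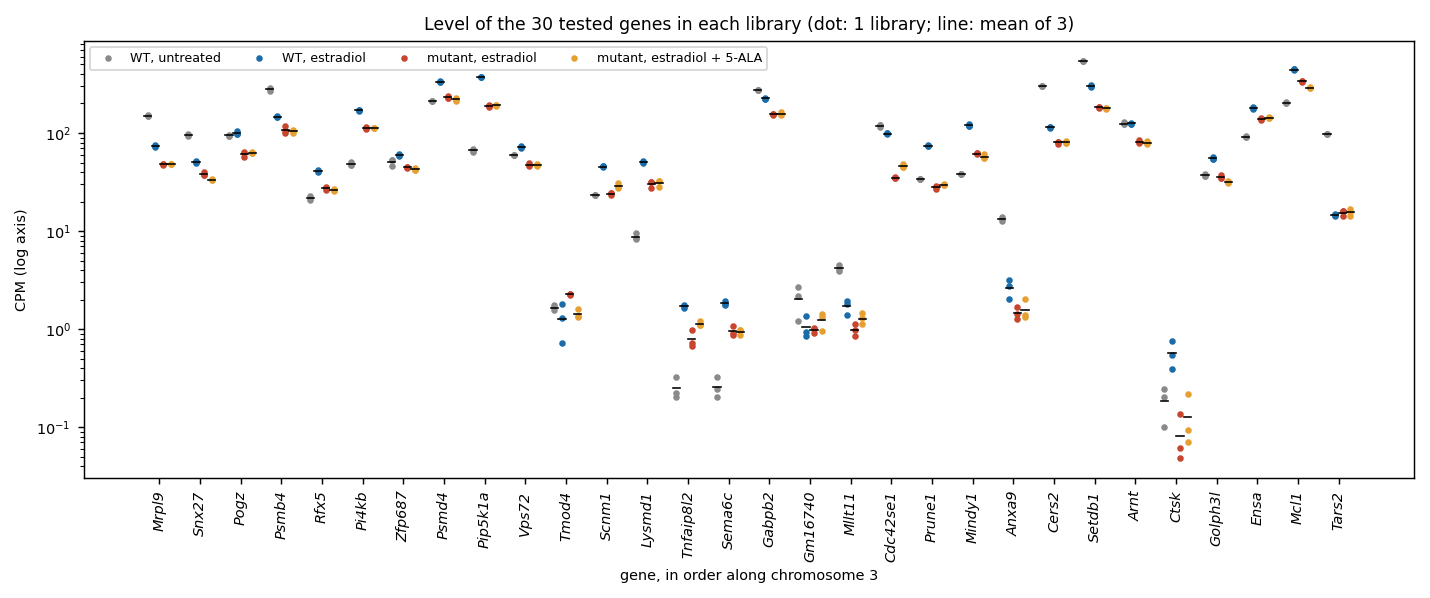
CPM on a log axis (vertical) of the 30 tested listed genes in their order along chromosome 3 (horizontal), with 1 dot per library and a line at the mean of each group of 3. Blue points (WT with estradiol) lie above red ones (mutant with estradiol) except at Tmod4, Tars2 and Gm16740, and the grey untreated points lie on either side.

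Among the protein turnover genes, all 4 that were tested were called lower in mutant cells with estradiol (33.6% of all genes), and 3 of the 4 rose with estradiol in WT cells. Estradiol in WT cells changed 89.7% of all tested genes, 43.3% upwards and 46.4% downwards. Psmd4, a ubiquitin receptor in the regulatory particle of the proteasome, had 212, 211 and 211 CPM in untreated WT cells and 341, 329 and 333 with estradiol. It rose by 0.66 ± 0.025 on the log2 scale (adjusted p = 5.26e-21). Mutant libraries held 229.8, 226 and 239 CPM with estradiol and 214, 219.6 and 226 with 5-ALA, below every WT library with estradiol and above every untreated one. Psmb4, a subunit of the proteolytic core, had 289.5, 267 and 283 CPM in untreated WT cells and 151, 144 and 144 with estradiol, a change of -0.94 ± 0.054 (adjusted p = 1.99e-08). Levels in the mutant were 100, 106 and 118 CPM, and 101, 106 and 108 with 5-ALA. So the 2 proteasome genes moved in opposite directions with estradiol, and both were lower in the mutant libraries, at 69.2% and 74.0% of WT. Per unit of transcript length they were the most abundant of the listed genes, with mean TPM, a level scaled for transcript length and for the library's total, of 428 for Psmb4 and 324 for Psmd4.

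Mindy1, a deubiquitinase that trims polyubiquitin chains, rose from 38.1, 37.9 and 38.2 to 118, 119 and 123 CPM with estradiol in WT cells (1.65 ± 0.036, adjusted p = 6.1e-27). The mutant libraries had 60.5, 62.3 and 62.5 CPM, and 55.3, 55.6 and 61.7 with 5-ALA, between the untreated and the estradiol-treated WT libraries. The exons of Mindy1 overlap those of Prune1 by 127 bases and of Anxa9 by 71 bases on the other strand, and whether counting used strand is not given in the sources used here. Ctsk, a lysosomal cysteine protease best known from osteoclasts, was barely detected. Its counts were 4, 6 and 8 in untreated WT libraries and 12, 16 and 17 with estradiol, 1, 6 and 2 in mutant libraries and 6, 2 and 3 with 5-ALA. It had the lowest mutant value of the list (-2.54 ± 0.50), which rests on 45 counts against 9.

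All 8 chromatin and transcription genes were called lower in mutant cells with estradiol (33.6% of all genes), between 57.1% of WT (Mllt11) and 75.02% (Zfp687). With estradiol in WT cells 4 rose, 3 fell and 1 was not called, beside 43.3% of all genes higher and 46.4% lower. Setdb1, a histone methyltransferase that silences retroelements, fell from 540.4, 543 and 547 CPM in untreated WT cells to 297, 306 and 304 CPM with estradiol (-0.85 ± 0.021 on the log2 scale, adjusted p = 2.42e-25). Mutant libraries were lower still at 185, 185 and 179 CPM, and 181, 180.0 and 177 with 5-ALA, below both WT groups. Gabpb2, a subunit of the ETS-family factor GABP, had 277, 272 and 276 CPM in untreated WT cells and 225, 224 and 230.0 with estradiol (-0.28 ± 0.024, adjusted p = 4.45e-12). Its mutant libraries had 156, 154 and 157 CPM, and 164, 157 and 153 with 5-ALA. Arnt, the shared partner of the hypoxia-inducible factors and the aryl hydrocarbon receptor, had 129.5, 122 and 123 CPM without and 124, 127 and 124 CPM with estradiol. These groups overlapped and no change was called (0.00021 ± 0.029, adjusted p = 0.994). Mutant cells held it at 84.1, 79.5 and 81.6 CPM, and 82.2, 77.5 and 78.5 with 5-ALA, all below both WT groups.

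Pogz, a zinc finger protein that binds heterochromatin protein, had mean levels of 94.4 ± 0.860, 100.3 ± 4.11, 61.6 ± 3.61 and 63.0 ± 1.04 CPM (SD, n = 3) in the order untreated WT, WT with estradiol, mutant with estradiol and mutant with 5-ALA. In the same order Rfx5, a factor that drives MHC class II genes, had 21.8 ± 1.21, 41.0 ± 1.201, 27.4 ± 0.756 and 26.2 ± 0.762 CPM. Vps72, a histone-binding subunit of the SRCAP remodelling complex, had 59.6 ± 0.386, 72.1 ± 1.94, 47.6 ± 1.46 and 47.0 ± 1.14 CPM, and the zinc finger gene Zfp687 50.7 ± 3.52, 59.3 ± 1.33, 44.5 ± 0.496 and 42.7 ± 1.30 CPM. All 4 were higher with estradiol in WT cells, by 0.92 ± 0.048 for Rfx5 (adjusted p = 2.81e-17) and by at most 0.27 on the log2 scale for the other 3. Those 3 small differences had the other sign under at least 1 other scaling (TPM or library totals alone). The level of Mllt11, a gene first found fused to MLL in leukaemia, was low, with 4.52, 3.96 and 4.08 CPM in untreated WT cells and 1.79, 1.40 and 1.94 with estradiol (-1.31 ± 0.16, adjusted p = 5.89e-09). Mutant libraries had 1.12, 0.976 and 0.852 CPM of Mllt11, below the WT libraries, and 1.12, 1.45 and 1.29 with 5-ALA, which overlapped them. Mllt11 shares 111 exonic bases with Gm16740 and 38 with Cdc42se1 on the other strand, and Zfp687 shares 254 with Pi4kb.

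Of the genes of mitochondrial translation and RNA processing, Tars2 did not have a lower mutant level. Mrpl9, a protein of the large subunit of the mitochondrial ribosome, fell from 153, 147 and 147 to 74.2, 72.0 and 75.7 CPM with estradiol in WT cells (-1.02 ± 0.029, adjusted p = 5.05e-24). Its mutant libraries had 46.8, 47.9 and 48.7 CPM, and 48.2, 47.9 and 48.3 with 5-ALA, 64.8% and 65.2% of WT. Tars2, the mitochondrial threonyl-tRNA synthetase, had the largest fall of the list with estradiol, from 97.2, 98.3 and 98.8 to 14.7, 14.9 and 14.2 CPM (-2.75 ± 0.046, adjusted p = 6.3e-30). The mutant libraries held Tars2 at 14.4, 15.9 and 16.1 CPM, and at 16.7, 14.3 and 15.7 with 5-ALA, and overlapped the WT libraries with estradiol. Scnm1, a zinc finger protein involved in splicing, rose from 23.3, 23.2 and 23.2 to 45.6, 45.7 and 45.1 CPM with estradiol (0.97 ± 0.045, adjusted p = 2.13e-18). Mutant libraries held Scnm1 at 24.5, 24.2 and 23.1 CPM, overlapping the untreated ones, and at 27.4, 27.9 and 30.6 CPM with 5-ALA. Counts of Tdrkh were 1, 1 and 0, 0, 0 and 1, 0, 1 and 1 and 2, 4 and 1 in the same order of groups, too few to compare.

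All 6 lipid and membrane traffic genes were called lower in mutant cells with estradiol (33.6% of all genes). With estradiol in WT cells 3 rose and 3 fell, close to the shares of all genes (43.3% and 46.4%). Pip5k1a, a lipid kinase that makes a signalling phosphoinositide at the plasma membrane, rose from 64.1, 69.2 and 66.0 to 372, 374 and 376 CPM (2.50 ± 0.027, adjusted p = 9.38e-35). Mutant libraries held it at 186, 186 and 195 CPM, and at 194, 189.9 and 194 with 5-ALA, 50.6% and 51.5% of WT. Pi4kb, the Golgi kinase that acts a step earlier in the same lipid pathway, rose from 47.6, 46.7 and 51.1 to 169.9, 169 and 170.4 CPM (1.803 ± 0.030, adjusted p = 4.05e-30). It stood at 111, 114 and 113 CPM in mutant libraries, and at 112, 111 and 112 with 5-ALA. Golph3l, a Golgi protein that binds the product of that kinase, had 36.8, 36.4 and 38.0 CPM untreated and 57.0, 54.2 and 54.7 with estradiol (0.58 ± 0.038, adjusted p = 1.26e-14). In the mutant it stood at 37.6, 34.6 and 34.9 CPM, overlapping the untreated ones, and 32.6, 31.6 and 31.3 with 5-ALA. 

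The 3 that fell with estradiol were Cers2, Snx27 and Anxa9. Cers2, the synthase of very long-chain ceramides, fell from 303, 299 and 304 to 114, 116 and 113 CPM (-1.40 ± 0.025, adjusted p = 2.51e-29), with 78.1, 81.8 and 81.2 CPM in mutant libraries and 82.8, 79.6 and 78.6 with 5-ALA. Snx27, which returns membrane proteins from endosomes with the retromer complex, fell from 93.0, 97.8 and 95.6 to 51.6, 49.9 and 50.3 CPM (-0.91 ± 0.033, adjusted p = 1.86e-21). Mutant libraries held 39.6, 37.5 and 37.5 CPM of Snx27, and 33.9, 33.1 and 33.2 with 5-ALA. Anxa9, an annexin, fell from 13.9, 12.8 and 13.3 to 2.77, 2.01 and 3.15 CPM (-2.35 ± 0.12, adjusted p = 1.56e-16). Mutant cells held 1.70, 1.27 and 1.43 CPM, below the WT libraries, and 1.33, 1.38 and 2.04 with 5-ALA, the highest of which overlapped the lowest WT library. Cers2 shares 75 exonic bases with Setdb1 on the other strand.

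Among the survival, signalling and cytoskeleton genes, 6 of the 7 tested were called lower and 1 higher in mutant cells with estradiol (33.6% and 35.1% of all genes). With estradiol in WT cells 5 rose and 1 fell (43.3% and 46.4% of all genes). Mcl1, which keeps cells alive by binding pro-apoptotic BCL2 relatives, rose from 202, 202 and 205 to 437, 445 and 444 CPM with estradiol in WT cells (1.12 ± 0.021, adjusted p = 1.68e-28). Mutant libraries had 340.2, 336 and 335 CPM, and 294, 288 and 285 with 5-ALA, 76.2% and 65.4% of WT and still above the untreated libraries. Ensa, an inhibitor of a mitotic protein phosphatase, rose from 90.3, 91.3 and 93.6 to 180.5, 182 and 177 CPM (0.97 ± 0.025, adjusted p = 5.83e-25). With 141, 137 and 139 CPM in mutant libraries and 146, 143 and 141 with 5-ALA it had the highest ratio of the lowered genes, 77.2%. Cdc42se1, a small binding partner of the GTPase Cdc42, fell slightly with estradiol, from 120.4, 116 and 121 to 97.0, 99.4 and 99.8 CPM (-0.27 ± 0.030, adjusted p = 8.17e-10). Mutant libraries held 34.7, 34.5 and 35.5 CPM of it, 35.4% of WT, the lowest ratio of any listed gene above 1 CPM. With 5-ALA the values were 45.5, 44.9 and 48.4 CPM, 47.0% of WT.

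Prune1, a phosphoesterase, had 34.0 ± 0.306, 74.6 ± 0.872, 27.9 ± 1.01 and 29.6 ± 0.664 CPM (SD, n = 3) in the order untreated WT, WT with estradiol, mutant and mutant with 5-ALA. The mutant level, 37.6% of WT, lay below the untreated one too. Tnfaip8l2, a brake on immune receptor signalling, rose from 0.225, 0.327 and 0.205 to 1.63, 1.74 and 1.76 CPM with estradiol (2.79 ± 0.27, adjusted p = 6.54e-11). Mutant libraries read 0.973, 0.681 and 0.730 CPM, and 1.23, 1.098 and 1.098 with 5-ALA. Sema6c, a transmembrane semaphorin, rose from 0.325, 0.245 and 0.205 to 1.76, 1.94 and 1.8 CPM (2.80 ± 0.26, adjusted p = 2.39e-11), the largest fitted rise of the list. It read 1.07, 0.908 and 0.882 CPM in mutant libraries, and 0.865, 0.992 and 0.973 with 5-ALA. Both genes stayed under 2 CPM in all groups, so their folds rest on few reads. Tmod4, a tropomodulin that caps actin filaments in muscle, was the only listed gene called higher in mutant cells. Its libraries read 1.75, 1.67 and 1.57 CPM untreated, 1.83, 1.29 and 0.720 with estradiol in WT, 2.29, 2.25 and 2.31 in mutant cells and 1.37, 1.59 and 1.32 with 5-ALA. Bnipl, a relative of a BCL2-interacting protein, had counts of 0, 0 and 4, 6, 2 and 0, 1, 3 and 1 and 4, 2 and 0.

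The remaining genes were Lysmd1, a protein with a LysM domain, Gm16740, a transcript on the strand opposite to Gabpb2 and Mllt11 that overlaps both, and Ctss. Lysmd1 rose from 8.60, 9.47 and 8.24 to 51.0, 51.4 and 49.7 CPM with estradiol (2.54 ± 0.064, adjusted p = 6.08e-24), with 27.7, 31.7 and 31.6 CPM in mutant libraries and 32.2, 32.2 and 27.9 with 5-ALA. Gm16740 had 2.17, 1.23 and 2.70 CPM in untreated WT cells and 0.848, 1.36 and 0.945 with estradiol, a change of -0.98 ± 0.25 (adjusted p = 0.000554) although the groups overlapped. Mutant levels were 0.924, 1.02 and 1.00 CPM, and 1.33, 0.956 and 1.44 with 5-ALA, and did not differ from WT by the test's threshold. It shares 328 exonic bases with Gabpb2, whose mean TPM was 45.4 against its own 2.44, so its value is uncertain. Ctss, a protease of antigen-presenting cells, had 3 counts in all 12 libraries.

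Estradiol in WT cells raised 17 and lowered 11 of the 30 tested genes, and 2 (Arnt and Tmod4) were not called. This comparison did not choose the genes, but it shares the WT libraries with estradiol with the comparison that did. The largest rises were Sema6c, Tnfaip8l2, Lysmd1 and Pip5k1a, between 5.65-fold and 6.95-fold, and the largest falls were Tars2 (6.71-fold lower), Anxa9 (5.11-fold lower) and Cers2 (2.64-fold lower). The share called, 28 of 30, was close to the 89.7% of all genes. The median was 0.25 on the log2 scale beside -0.03 for all tested genes. Groups did not overlap for 17 higher and 10 lower genes, beside 43.6% and 46.7% of all genes. The split depends on scaling: on TPM, or with counts scaled by library totals alone, 14 genes were higher and 15 lower. Of all 12115 tested genes, 10596 (TPM with a pseudocount of 1), 10597 (with 0.1) and 10803 (library totals) were then called in either direction. The totals were not split by direction, so the split of the listed genes cannot be set against that of all genes there. In the same order the median of the listed genes was -0.12, -0.13 and -0.09, while that of all genes moved to -0.23, -0.30 and -0.37. So the listed genes lay above the median of all genes under each scaling, while their direction as a group changed with the scaling. With the main scaling the 20 tested neighbours on the left had a median of 0.46 and the 20 on the right -0.43. The 9 unlisted tested genes of the interval had 1.31. The listed genes were chosen as low against these same WT libraries with estradiol, so their higher median cannot be told apart from that choice.

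Listed genes of either estradiol response had lower mutant levels. The genes were chosen for those lower levels, so this is a description and supports nothing. Tars2 (-2.75 with estradiol and 0.09 for the mutant) and Gm16740 (-0.98 and -0.09) fell with estradiol but were not called in the mutant. For Pip5k1a the values were 2.50 with estradiol and -0.98 for the mutant, for Cers2 -1.40 and -0.51, for Setdb1 -0.85 and -0.73, and for Pi4kb 1.803 and -0.59, all on the log2 scale. The pairs of values share the WT libraries with estradiol.

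**Figure D3:**
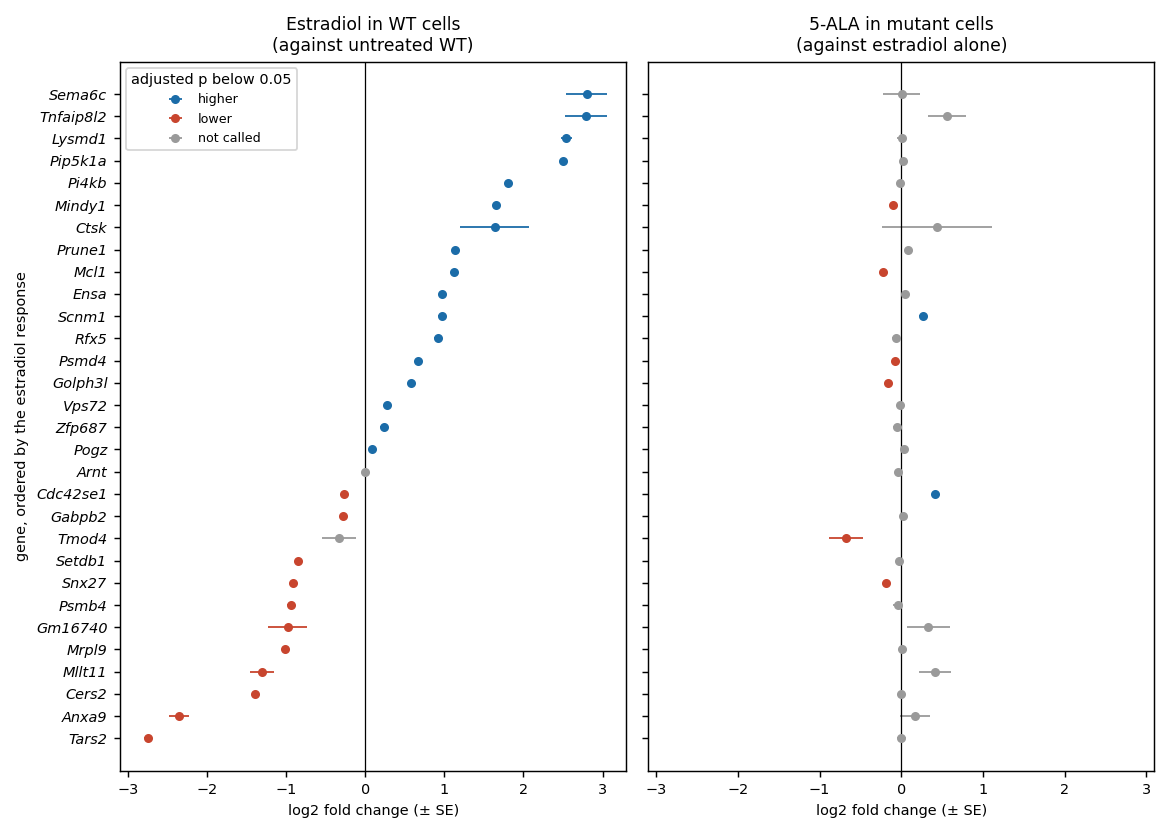
Log2 fold change (horizontal axes, ± SE) of the 30 tested genes (vertical axis, ordered by the left panel) with estradiol in WT cells (left) and with 5-ALA in mutant cells given estradiol (right). Blue points were called higher, red points lower and grey points neither: 17, 11 and 2 genes on the left, and 2, 6 and 22 on the right.

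With the scaling between libraries used for CPM, 5-ALA in mutant cells changed few of these genes: 2 rose, 6 fell and 22 were not called. Across all tested genes 42.6% were called, 21.6% higher and 21.0% lower. This comparison shares the mutant libraries with estradiol with the one that chose the genes. The rises were Cdc42se1 (0.41 ± 0.037, adjusted p = 2.41e-10) and Scnm1 (0.26 ± 0.047, adjusted p = 4.36e-05). The falls were Tmod4 (-0.68 ± 0.20, adjusted p = 0.00827), Mcl1 (-0.22 ± 0.021, adjusted p = 8.05e-10), Snx27 (-0.19 ± 0.038, adjusted p = 0.00017) and Golph3l (-0.16 ± 0.041, adjusted p = 0.00239), for all of which the groups were apart. Mindy1 (-0.10 ± 0.037, adjusted p = 0.025) and Psmd4 (-0.074 ± 0.025, adjusted p = 0.0169) were also called, but their groups overlapped. The median log2 change of the 30 genes was 0.00, beside 0.01 for all tested genes. Groups did not overlap for 5 higher genes (25.3% of all genes) and 4 lower ones (23.8%).

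The 3 genes apart but not called were Tnfaip8l2 (0.56 ± 0.23, adjusted p = 0.0511), Prune1 (0.081 ± 0.040, adjusted p = 0.107) and Ensa (0.047 ± 0.025, adjusted p = 0.138). The 5-ALA result depends on scaling. On TPM 1 gene was higher and 20 were lower with 5-ALA, and with library totals alone 2 were higher and 17 lower. Of all 12115 tested genes, 6525 (TPM with a pseudocount of 1), 6452 (with 0.1) and 6076 (library totals) were then called in either direction. Those totals were not split by direction, so the excess of lower listed genes cannot be set against that of all genes there. With the main scaling 5163 were called. So the listed genes were not changed less often than other genes under every scaling. The median of the listed genes was then -0.19 or -0.20 on TPM and -0.10 on library totals, beside -0.15, -0.19 and -0.09 for all genes. Scnm1 was not called on TPM. Leaving out single libraries ended the call for Mindy1 (without mutant library 2 or 3, or 5-ALA library 1 or 2) and for Psmd4 (without mutant library 3 or 5-ALA library 1), with log2 changes of -0.07 to -0.10 and -0.05.

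Transcript structure was read from the mean length of each gene's transcripts, weighted by their estimated abundance in each library, a value that did not enter the choice of the genes. Of 29 listed genes with a mean TPM of at least 1, 23 varied in this length and 6 had a single length throughout. With estradiol in WT cells, 9 of the 23 had groups that did not overlap, against 40.3% of the 7176 genes that varied. With 5-ALA in mutant cells the genes apart were Pip5k1a, Cdc42se1, Setdb1 and Ensa (4 of 23, against 15.8%). Between mutant and WT cells with estradiol they were 9 (24.0% of all genes), and with 5-ALA 5 (20.4%). With 3 libraries against 3, an exact permutation test cannot give a p below 0.1, so no single length difference could pass 0.05.

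Cdc42se1 had a mean length of 2187, 2081 and 2203 bases in untreated WT cells and 1842, 1802 and 1949 with estradiol. Mutant libraries with estradiol gave 2153, 2149 and 2095 bases, within the untreated range, and 1967, 1975 and 1892 with 5-ALA. Its level and its length thus both differed between the mutant groups with and without 5-ALA. For Ensa the lengths were 1878, 1875 and 1884 bases in untreated WT cells and 2060, 2044 and 2031 with estradiol. Ensa in mutant libraries was longer still, at 2108, 2093 and 2091 bases, and lay at 2075, 2066 and 2074 with 5-ALA. Setdb1 had 4718, 4778 and 4788 bases untreated and 4647, 4621 and 4671 with estradiol. Its mutant libraries had 4729, 4704 and 4749 bases, and 4644, 4684 and 4639.5 with 5-ALA.

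**Figure D4:**
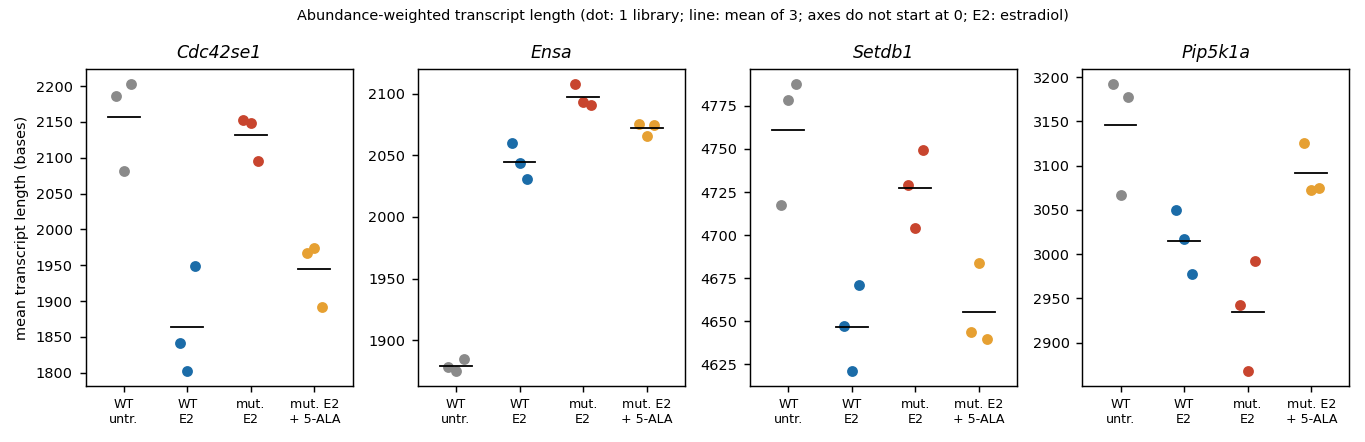
Mean transcript length in bases (vertical axes, which do not start at 0) of Cdc42se1, Ensa, Setdb1 and Pip5k1a in each library of the 4 groups (horizontal axes), with 1 dot per library and a line at the group mean. For Cdc42se1 the WT libraries with estradiol lie between 1802 and 1949 bases and the mutant libraries with estradiol between 2095 and 2153.

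Genes elsewhere in the genome that work with the listed ones gave a view of parts of the same complexes and pathways. These lists were written with earlier results of these data known. For all partner counts below, 35.1% of all tested genes were called higher and 33.6% lower in mutant cells with estradiol. On TPM 7944 (pseudocount of 1) and 7905 (0.1) of all 12115 genes were called in either direction, with all-gene medians of 0.12 and 0.18. These totals were not split by direction, so the TPM counts below cannot be set against a share of all genes by direction. With estradiol in WT cells 43.3% of all genes rose and 46.4% fell. Of 31 other proteasome genes, mutant cells had 15 higher and 10 lower than WT cells, both with estradiol, with a median log2 difference of 0.07 (21 higher and 4 lower on TPM), beside -0.53 for Psmd4 and -0.43 for Psmb4. Psmd2, which had the most reads of them, stood at 248, 239 and 241 CPM in WT and 209.6, 213 and 211 CPM in mutant cells with estradiol (-0.20 ± 0.023, adjusted p = 5.77e-09). With estradiol in WT cells 26 of the 31 fell and 5 rose (median -0.92), so Psmb4 moved with most of the complex and Psmd4 with the 5. Of 19 other genes of the large mitochondrial ribosomal subunit, 11 were higher and none lower in mutant cells, also at an unadjusted p below 0.05 in edgeR, DESeq2 and limma (median 0.27, against -0.63 for Mrpl9). This list is partial: it holds genes numbered from Mrpl1 to Mrpl24 only, so it does not speak for the whole subunit. Mrpl15 had 35.8, 37.0 and 38.3 CPM in WT and 36.8, 38.7 and 39.4 CPM in mutant cells, and was not called (0.058 ± 0.043, adjusted p = 0.237). The 16 other mitochondrial aminoacyl-tRNA synthetases had a median of 0.21, with 11 higher and 2 lower, and of these 13 fell with estradiol in WT cells, as Tars2 did.

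Several partner lists were mixed. Of 11 BCL2 family genes 3 were higher and 6 lower in mutant cells (3 and 3 on TPM), with a median of -0.24 beside -0.39 for Mcl1. Among them Bcl2l1, a survival factor of maturing erythroblasts, had 39.95, 36.8 and 38.1 CPM in untreated WT cells and 853, 846 and 851 with estradiol. The mutant level was 441, 451 and 459.7 CPM (-0.92 ± 0.025, adjusted p = 3.17e-23), a larger difference than that of Mcl1. Of 15 partners of SETDB1 and POGZ 7 were higher and 3 lower (median 0.05, and 9 and 2 on TPM), and Cbx5, a heterochromatin protein gene, had 97.1, 100.3 and 101 CPM in WT and 118, 119.6 and 117 CPM in mutant cells (0.25 ± 0.026, adjusted p = 1.06e-09). Of 6 GABP and RFX partners 1 was higher and 4 lower (median -0.31). Gabpb1, the closest relative of Gabpb2, had 90.5, 87.7 and 89.2 CPM in WT and 54.5, 55.8 and 53.5 in mutant cells (-0.71 ± 0.032, adjusted p = 6.45e-18). Among 11 genes of VPS72 complexes 5 were higher and 2 lower (median 0.17, and 9 and 2 on TPM), and of 4 ARNT partners 1 was higher and 1 lower (median 0.04, and 2 and 0 on TPM).

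For lipids and proteolysis, 10 other phosphoinositide genes had 4 higher and 6 lower (4 and 3 on TPM), with a median of -0.15 that turned to 0.04 on TPM and 0.0029 on library totals. Pi4k2b had 270.2, 275 and 278 CPM in WT and 193, 185 and 184 CPM in mutant cells (-0.55 ± 0.025, adjusted p = 5.53e-18), close to -0.59 for Pi4kb. Of 6 sphingolipid genes 2 were higher and 3 lower (2 and 2 on TPM), with a median of -0.10 that turned to 0.0055 and 0.04 on TPM and 0.06 on library totals. Cers6, another ceramide synthase, had 214, 209 and 212 CPM in WT and 96.8, 94.9 and 90.1 in mutant cells (-1.17 ± 0.027, adjusted p = 4.95e-25), lower than Cers2 in log2 difference. Of 10 retromer genes 7 were higher and 3 lower (median 0.19, and 8 and 1 on TPM), and of 8 cathepsin and cystatin genes 7 were higher and 1 lower (median 0.72). Ctsb, which had the most reads of these, stood at 1118, 1126 and 1125 CPM in WT and 1249, 1288 and 1276 CPM in mutant cells (0.18 ± 0.022, adjusted p = 3.55e-08). Of 12 lists, 4 had a negative median (BCL2, GABP and RFX, and the phosphoinositide and sphingolipid genes, whose medians turned as given). Values of listed genes are set beside these medians as a description only, because the listed genes were chosen on this same difference.

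**Figure D5:**
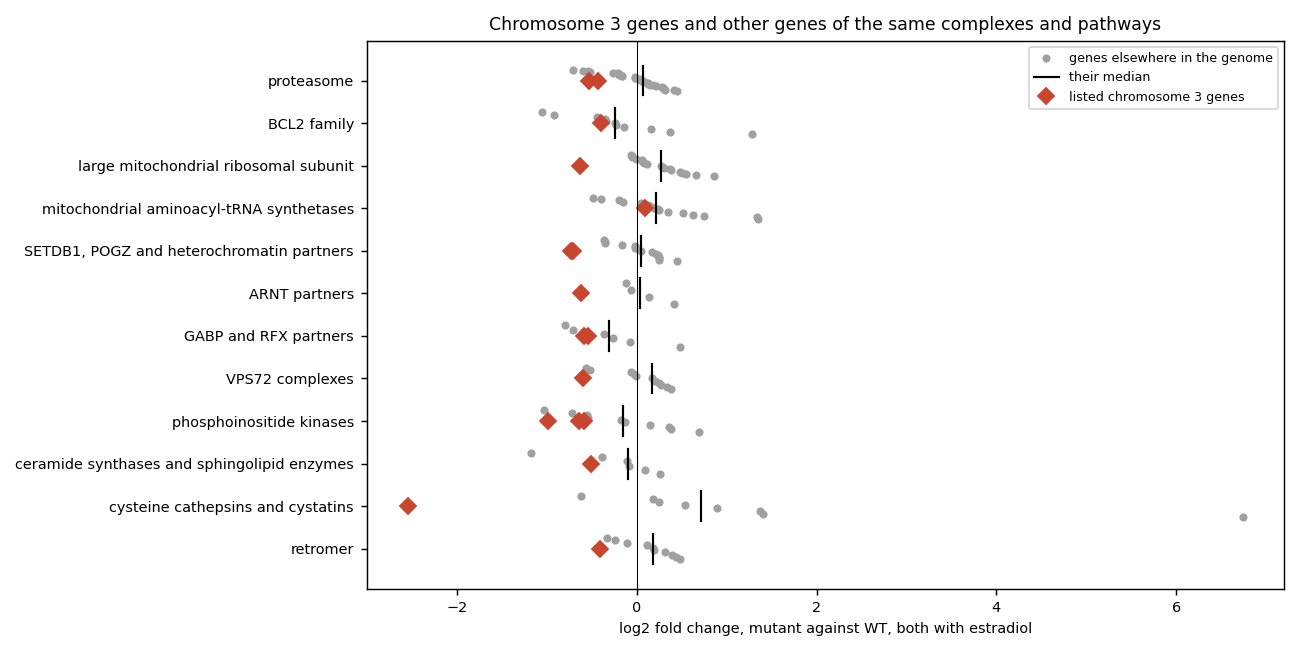
Log2 fold change, mutant against WT cells, both with estradiol (horizontal axis), of genes elsewhere in the genome (grey) that share a complex or pathway (vertical axis) with listed chromosome 3 genes (red), with black lines at the median of the grey points. Red points were chosen on this difference, so their place below the black line in every row is a description and supports nothing. Tars2, in the row of mitochondrial aminoacyl-tRNA synthetases, lies at 0.09 and the line at 0.21.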

How the data were processed

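Per the labels, TRIzol was used to extract the RNA and a TruSeq kit to prepare the libraries. Build mm10 and the tools Bowtie 1.1.1, RSEM 1.2.20 and CASAVA 1.8.2 are listed in the submitters' processing notes. How long the reads were, which annotation was used and whether counting used strand is not given in the sources used here. Per the file headers, the authors' tables hold RSEM expected counts, in which shared reads are divided among genes by likelihood, with TPM and FPKM (scaled for length and depth) and abundance-weighted transcript lengths per gene. The deposited expected counts were used for the tests, the authors' TPM for levels per length and an alternative, and the deposited lengths for transcript structure. FPKM was not used here.

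Symbols and coordinates are those of GENCODE M21 (GRCm38), which matched 24746 of 25097 identifiers. Expected counts were rounded, filtered with filterByExpr by group, normalized by TMM, and edgeR 4.0.16 (R 4.3.3) fitted them as 4 group means over 12 libraries. Quasi-likelihood F tests were adjusted by Benjamini-Hochberg over 12115 genes. Each SE was approximated by dividing the size of the log2 fold change by the root of its F statistic. TMM factors were 1.135 to 1.173 in untreated WT libraries, 0.906 to 0.913 in WT libraries with estradiol, 1.01 in mutant libraries and 0.937 to 0.950 with 5-ALA. The fit was also run on simulated counts, for the 5-ALA comparison only. These were drawn with the fit's own spread and with far fewer changed genes than were called here. The run is not used as support. Replicates differed beyond counting noise (chi-square per degree of freedom of 1.75 to 14.4), so none was a duplicate.

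The members and all gene lists were chosen with earlier results of these data known. Values per library are given for the 10 members with the highest mean CPM, for those with a mutant-WT log2 difference above -0.3, for up to 6 called members per direction in the estradiol and 5-ALA comparisons, for 3 neighbours on each side, and for Alas2. Of each partner list up to 3 genes with the highest mean CPM qualified. Those printed, like Tuft1, Selenbp1, Selenbp2 and Ecm1 inside the interval, were picked after their values were seen. Alternatives used DESeq2 1.42.0, limma 3.58.1 on log2(TPM + 1) and log2(TPM + 0.1), other filters and scalings, 2-group fits, a replicate block and left-out libraries. Library totals without TMM were added after seeing the data.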

Additional observations from a re-analysis of the deposited data

How the results depend on the processing

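The count of listed genes lower in mutant cells stayed within 26 to 27 with estradiol and 25 to 27 with 5-ALA over all alternatives. The median log2 difference was -0.64 with DESeq2 and with its size factors, -0.44 and -0.41 on log2(TPM + 0.1) and log2(TPM + 1), -0.59 without a filter and -0.47 on library totals. The last 3 scalings (both TPM fits and library totals) called 2 genes higher. With 5-ALA the median was -0.63 (2-group fit), -0.65 (DESeq2 and its size factors), -0.62 and -0.59 (TPM + 0.1 and + 1), -0.60 (no filter), -0.57 (library totals, with 1 gene higher) and -0.62 (stricter filter, at least 1 CPM in 3 libraries). The estradiol median was 0.31 (2-group fit), 0.29 (DESeq2 and its size factors), 0.22 (no filter) and 0.32 (stricter filter). It reversed to -0.13 and -0.12 on TPM (+ 0.1 and + 1) and to -0.088 on library totals, where the median of all genes moved as well, and the cause was not tested. The 5-ALA counts became 1 higher and 20 lower on both TPM scales, with medians of -0.20 and -0.19, and 17 lower on library totals, with a median of -0.10. Of all 12115 tested genes, 6452, 6525 and 6076 were called in either direction on these 3 scales.

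Leaving out 1 library gave medians of 0.22 to 0.28 (estradiol), -0.030 to 0.013 (5-ALA), -0.62 to -0.60 (mutant) and -0.63 to -0.60 (mutant with 5-ALA), and 1 to 2 and 0 to 1 genes higher in the last 2. Tnfaip8l2 was not called in the last comparison with DESeq2 or without WT library 2 or 5-ALA library 2 or 3, and Mllt11 was called lower without WT library 2, with DESeq2's size factors and on log2(TPM + 1). Arnt with estradiol read -0.27 and -0.27 on TPM and -0.34 on library totals. With 5-ALA, on the same 3 scales, Mrpl9 read -0.19, -0.19 and -0.094, Pip5k1a -0.26, -0.25 and -0.078, Gabpb2 -0.17, -0.16 and -0.080, Sema6c -0.60 and -0.33, and Ensa -0.14 and -0.14 (both TPM only). With 10 and 40 neighbours the left median was -0.17 and -0.00033, and -0.066 and 0.014 with 5-ALA, and with 40 the right median was 0.15 and 0.18.

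Replicate numbers did not pair the libraries: deviations of same-numbered libraries from their group means correlated at -0.08 to 0.07. With the replicate number as a block the counts were 17 higher and 11 lower (estradiol), 2 and 6 (5-ALA), 1 and 27 (mutant) and 0 and 26 (mutant with 5-ALA), as without it. Depth limits Tdrkh, Bnipl, Ctss and Ctsk, which had at most 17 counts a library, and 3 libraries a group limit every test.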
